A study of Mus musculus with 28 samples.

Results

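The genes described here carry the names of the proteins of the cytosolic ribosome, measured in mouse microglia, the resident macrophages of the brain. They were chosen by symbol: names that start with Rpl or Rps followed by a digit, p or a, without the pseudogene symbols (-ps) and without the Rps6k kinases. Of 426 matching rows, 322 pseudogene rows and 10 kinase rows were dropped, which left 94 symbols among 54427 named genes. Of these, 93 had counts; Rps23rg1 had no number in the tables, and Rpl10l and Rps12l1 had 0 counts in every library. By role, the 93 were 43 large subunit proteins, 31 small subunit proteins, 3 proteins of the ribosomal stalk, 15 paralogues or retro-copies and 1 binding protein, Rps19bp1, which partners a ribosomal protein and is not part of the ribosome. GENCODE types 7 of the 93 as processed pseudogenes, among them Rpl6l, Rps4l and Rpl32l. RNA came from primary microglia of 2 genotypes, APOE3 (genotype label WT) and APOE3S/S (genotype label Christchurch, the R136S change of APOE3), left untreated (label Control) or given amyloid or tau. The 28 libraries comprised 6 untreated, 6 tau and 3 amyloid libraries of APOE3 cells, and 4 untreated, 6 tau and 3 amyloid libraries of APOE3S/S cells. By their titles 17 libraries form one set, marked SAN, and 11 a second set; amyloid was given only in the SAN set. The labels state no dose, form or duration of the tau and amyloid, no age of the mice and no number of animals behind a library, so p-values measure the spread between these libraries, which may be technical.

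A ribosome joins a small subunit, which reads the mRNA, and a large subunit, which forms the peptide bond. Most of its proteins are made in equal numbers, and their mRNAs share a terminal oligopyrimidine (TOP) motif at the 5′ end, a C followed by a run of C and T letters, through which the kinase complex mTORC1 sets how strongly they are translated. The transcription factor Myc and the nucleolar assembly factors set how many ribosomes are built. In activated macrophages protein synthesis is a main point of control of the inflammatory response.

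Library totals ran from 14464761 to 27220695 counts, and mitochondrial genes took 0.934% to 1.79% of them. The 12 microglial markers (Cx3cr1, Csf1r, Aif1 and others) summed to 8187 to 13763 CPM (counts scaled to a common library total), all 12 with a mean of at least 1 CPM. Csf1r (median 2705 CPM) and C1qa (2125) were the highest of them. Tmem119 (median 3.14, lowest library 0.91) and P2ry12 (median 21.3) were the lowest. Markers of astrocytes summed to 30.4 to 109.5 CPM and of oligodendrocytes to 108.4 to 180.3. Mbp alone had 87.9 to 126.8 CPM, and the other oligodendrocyte markers had medians from 0.122 (Mog) to 11.4 (Mag). Aldh1l1 (median 37.2 CPM) and Aldoc (24.2) led the astrocyte list, whose other markers had medians from 0.561 (Slc1a2) to 2.26 (Gfap). Markers of neurons summed to 0.570 to 4.44 CPM and of fibroblasts to 0.658 to 64.6. Those of granulocytes and lymphocytes summed to 2.30 to 21.7, with S100a9 and Nkg7 at 0. The part of these other cells in the results below was not tested. In bulk RNA, fewer cells of a type and less RNA per cell cannot be told apart.

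To show the motif that this family is known for, the RefSeq table of start sites (GRCm38.p6) was read from 20 bases before to 20 bases after each annotated start; it held 68 of the 93 genes. The sequences shown are those of Rpl4 and Rpl12, which fell with tau, Rpl5 and Rpl13, whose libraries did not overlap between tau and untreated cells of one genotype, Rpl38 and Rplp2, where the motif sits exactly at the start, Rpl10a, which fell with tau and lacks it, and the retro-copy pair Rps27 and Rps27rt. Capitals mark CTTTC.
Rpl4, chr9:64173367-64173406, plus strand: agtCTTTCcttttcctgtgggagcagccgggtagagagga
Rpl12, chr2:32961692-32961731, plus strand: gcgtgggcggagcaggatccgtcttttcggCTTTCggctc
Rpl5, chr5:107900508-107900547, plus strand: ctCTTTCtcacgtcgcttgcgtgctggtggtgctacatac
Rpl13, chr8:123102330-123102369, plus strand: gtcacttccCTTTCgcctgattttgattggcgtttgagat
Rpl38, chr11:114668560-114668599, plus strand: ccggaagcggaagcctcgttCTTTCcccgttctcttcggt
Rplp2, chr7:141447631-141447670, plus strand: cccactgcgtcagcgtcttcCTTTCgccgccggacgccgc
Rpl10a, chr17:28328451-28328490, plus strand: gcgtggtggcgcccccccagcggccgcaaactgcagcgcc
Rps27, chr3:90213629-90213668, minus strand: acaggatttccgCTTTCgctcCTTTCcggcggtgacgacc
Rps27rt, chr9:114982720-114982759, minus strand: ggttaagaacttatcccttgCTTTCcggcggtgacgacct

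On the sense strand, 20 of the 68 genes (29.4%) held CTTTC in the 40 bases, against 6.44% of all 27025 genes of the table. CTTTCC, which contains CTTTC, was in 12 of 68 (17.6%) against 2.30%. A run of 8 or more C or T letters that starts with C was in 31 of 68 (45.6%) against 14.5%. On the antisense strand the shares were 5.88%, 0% and 5.88% of the ribosomal protein genes, against 5.67%, 2.03% and 15.7% of all genes. A match is only a stretch of letters, and annotated starts can miss the used start by several bases. Counted from the annotated start, CTTTC began upstream at -17 in Rpl4, -18 in Rpl5, -11 in Rpl13 and -8 in Rps27 (first match). In Rpl12 it began downstream, at 10. The libraries of Rpl6 and Rps16 in APOE3 cells and of Rpl10 in APOE3S/S cells also did not overlap between tau and untreated. These genes lack CTTTC in the 40 bases and are not among the sequences shown above. Those sequences thus do not give the share of CTTTC among genes that were lower with tau.

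**Figure D1:**
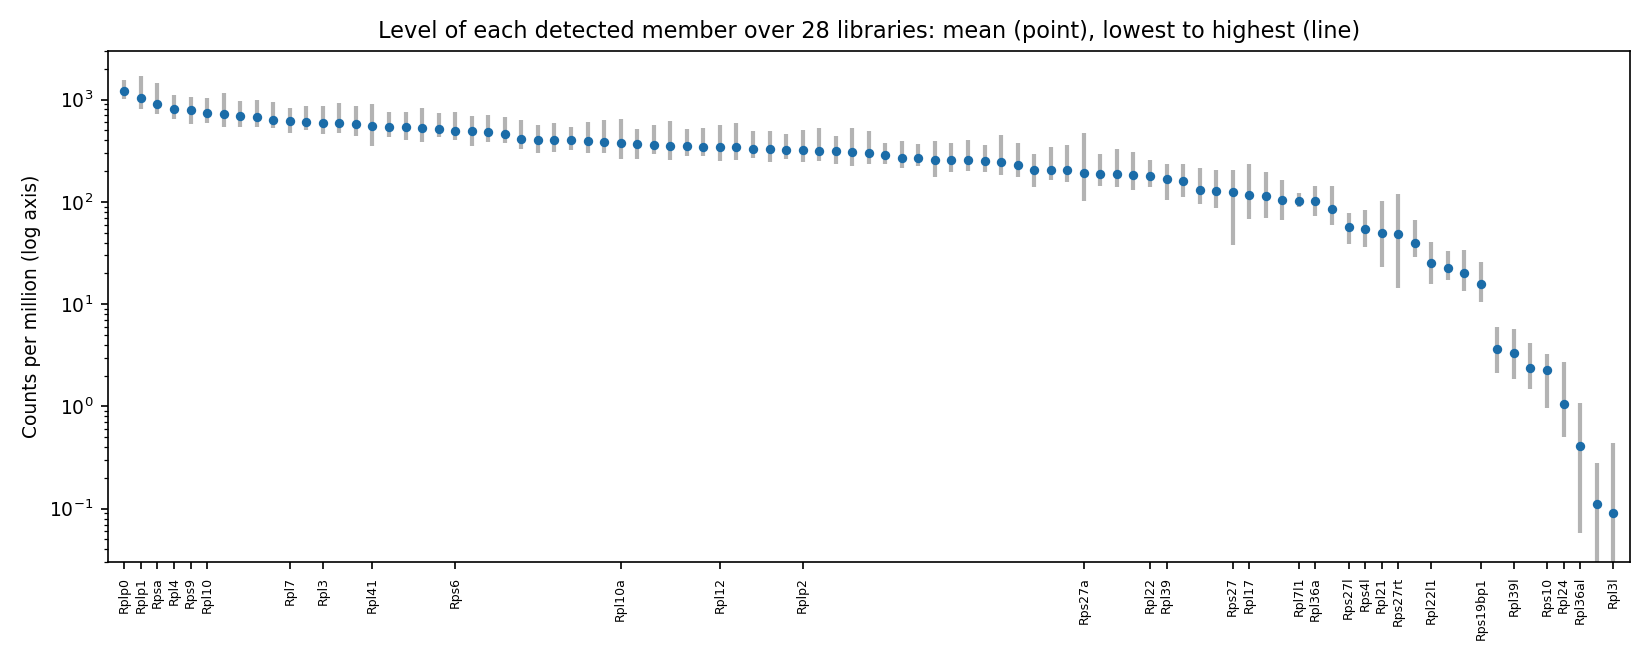
Level of each detected ribosomal protein gene in CPM on a log axis, ordered by mean, with labels for genes named in the text; points are the mean over 28 libraries, and lines run from the lowest to the highest library, reaching the foot of the axis where a library was at 0. Most genes lie between 100 and 1200 CPM with short lines, while Rps27a, Rps27, Rpl21 and Rps27rt have long ones.

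Together the ribosomal protein genes took 2.37% to 4.37% of the counts of a library. The kit counts 1 tag near the 3′ end of each mRNA, so CPM values of different genes are compared here without dividing by length. The stalk proteins, which recruit the elongation factors, were among the highest: Rplp0 averaged 1208 CPM (1016 to 1544 over 28 libraries) and Rplp1 1044 CPM. They were followed by Rpsa, a small subunit protein that also binds laminin, at 895 CPM, Rpl4 at 808 and Rps9 at 782. Rplp2, the partner of Rplp1 in the stalk, averaged 318 CPM. Rpl41, a short peptide of the large subunit, averaged 547 CPM. Of the 93 genes, 20 averaged at least 500 CPM, 53 from 100 to 500, 10 from 10 to 100 and 10 under 10.

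The low end held genes of several kinds. Tissue-restricted paralogues were near or at 0: the striated muscle paralogue Rpl3l averaged 0.0912 CPM beside 587 CPM for Rpl3, Rpl39l, known from testis, averaged 3.31 CPM beside 166 CPM for Rpl39, and Rpl10l, another testis paralogue, had 0 counts in every library beside 736 CPM for Rpl10. Rpl36al, which is not counted here as tissue-restricted, averaged 0.413 CPM beside 102 CPM for Rpl36a. Near its 3′ end it shared 70.1% of its 50-base stretches with other genes, a limit described below. Rps27l, the p53-inducible paralogue of Rps27, was not near 0, at 57.2 CPM. Rpl22l1 reached 25.1 CPM beside 177 CPM for Rpl22 and made up 9.01% to 16.4% of their sum. Rpl7l1, a biogenesis factor related to Rpl7, stood at 103 CPM, which was lower than Rpl7 in 28 of 28 libraries, and it varied least of all the genes, with a coefficient of variation of 7.61%.

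Rps10 and Rpl24 are full subunit proteins with low counts here. Rps10 held 1237 counts in all 28 libraries together (2.28 CPM), while the rows for its pseudogenes held 70517, which is 98.3% of both. Rpl17, a large subunit protein at the peptide exit, held 62032 counts and its pseudogene rows 151907, or 71.0% of both, and for Rpl21 the pseudogene share was 55.4%. Rpl24 held 545 counts. The last 300 bases of the annotated transcript were taken as the part the kit reads, and whether tags fall there was not tested. Of the 93 genes, 68 shared at least 1 stretch of 50 bases there with another annotated gene. At least 50% of these stretches were shared in 49 genes, and the median was 54.2%. Rpl10a shared 87.3% and Rpl3 76.5%, whereas Rpl4 and Rpl12 shared 0%. Rpl21 also shared 0% despite its pseudogene share of 55.4%. A value of 0% in the annotated transcript used thus does not show that the reads fit only that gene. Values of the sharing genes can therefore depend on how reads with several matches were assigned, which the sources used here do not give.

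The clearest case is Rps27, a small subunit protein with a zinc finger, and Rps27rt, its retro-copy, a gene without introns that arose from its mRNA. Their coding sequences in GENCODE M21 (GRCm38; Rps27 at chr3:90212725-90213615 and Rps27rt at chr9:114982453-114982707, both on the minus strand) were 255 bases long and differed at 0 positions. The sequence common to both is shown because any tag inside it fits either gene.
Rps27 and Rps27rt: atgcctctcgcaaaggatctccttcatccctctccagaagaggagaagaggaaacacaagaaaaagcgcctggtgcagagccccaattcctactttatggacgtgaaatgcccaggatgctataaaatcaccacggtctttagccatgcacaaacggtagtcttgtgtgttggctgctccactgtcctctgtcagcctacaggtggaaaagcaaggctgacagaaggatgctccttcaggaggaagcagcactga

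Every 50-base stretch of the end of Rps27 recurs in Rps27rt, and 88.4% of those of Rps27rt recur in another gene. Rps27 averaged 124 CPM and Rps27rt 48.2 CPM, and Rps27 was above Rps27rt in 24 of 28 libraries. Rps27rt took from 9.68% to 75.2% of their sum. Its levels moved against those of Rps27 across the 28 libraries (Pearson's r of log2 CPM -0.72, given as a description). The sum of both ran from 129 to 241 CPM with a coefficient of variation of 18.0%, against 35.9% for Rps27 and 64.0% for Rps27rt alone, and 18.0% is close to the median of 17.6% over all ribosomal protein genes of at least 10 CPM. The values of Rps27 and Rps27rt are therefore uncertain in every comparison below, also where they are listed among the extremes without this being repeated.

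**Figure D2:**
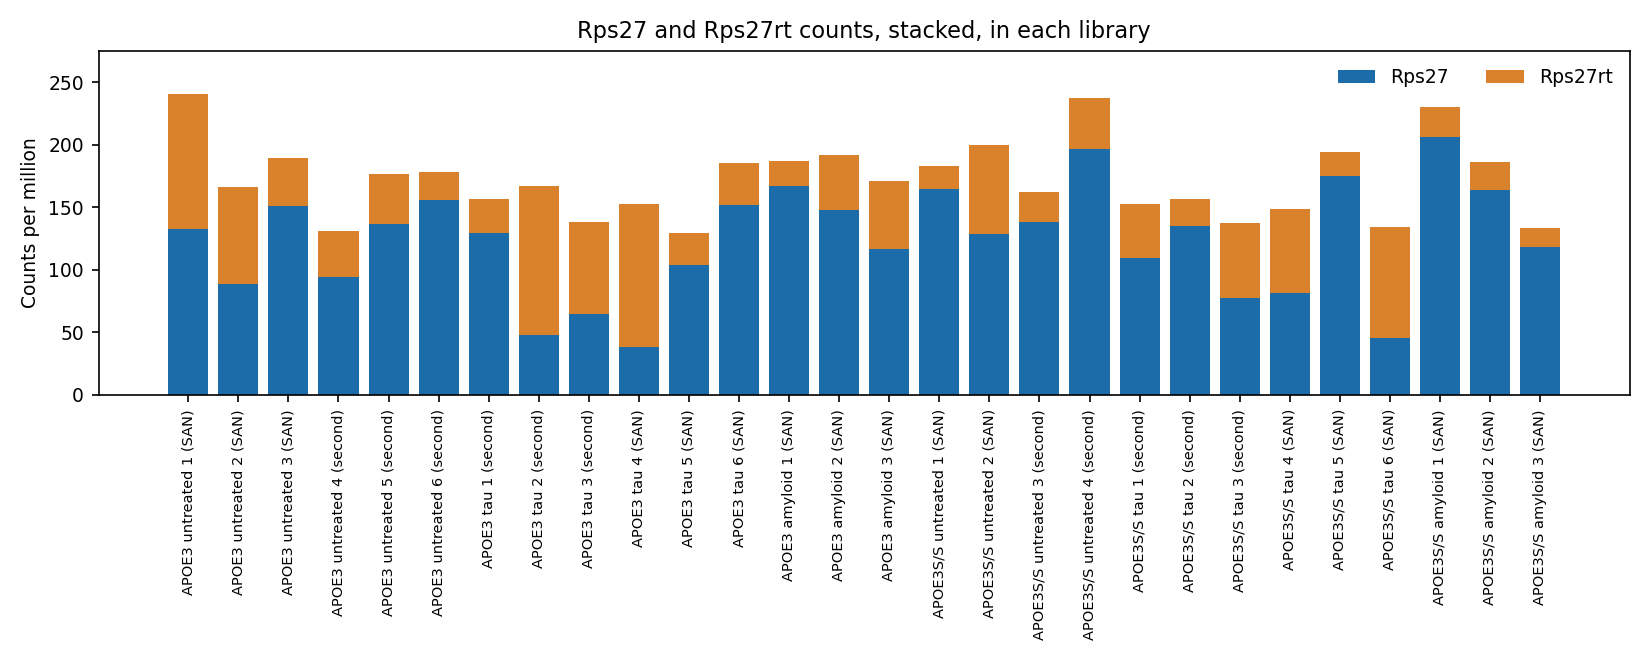
Level (CPM) of Rps27 (blue) and of its retro-copy Rps27rt (orange), stacked, in each of the 28 libraries, with the title set in brackets. The split between the genes varies from library to library, with Rps27rt at 9.68% to 75.2% of the bar, more than the height of the bars does.

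Across the 28 libraries the ribosomal protein genes moved together. Over the 83 genes with a mean above 5 CPM, the median correlation between pairs was 0.79 on the log2 scale, and 93 of 3403 pairs were negative; the libraries share depth and scaling, so this is a description. Rps15 and Rpl36 followed the mean of the others most closely, with correlations of 0.99 each. Rps27rt did so least, at -0.11, followed by Rps4l, a paralogue of Rps4x, at 0.17 and Rpl17 at 0.35. Rps27a, which is made as a fusion of ubiquitin and a ribosomal protein, ranged from 101 to 473 CPM and stood at 0.52.

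**Figure D3:**
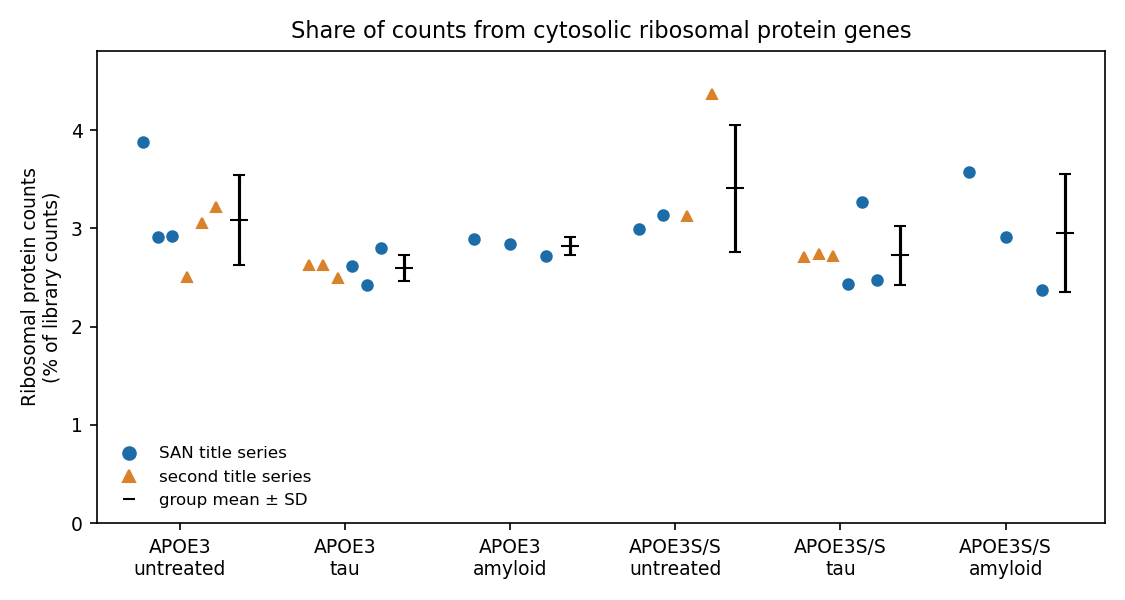
Ribosomal protein counts as a percent of all counts in each library, by group; circles are the SAN title set, triangles the second set, and black marks show the group mean ± SD. The tau libraries of APOE3 cells sit between 2.42% and 2.79%, and the highest library, at 4.37%, is an untreated APOE3S/S library of the second set.

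The share of counts in untreated APOE3 cells was 2.51% at the lowest, 2.99% at the median and 3.88% at the highest of 6 libraries. With tau it was 2.42%, 2.62% and 2.79%, and with amyloid the 3 libraries had 2.72%, 2.84% and 2.90%. The 4 untreated APOE3S/S libraries had 2.99%, 3.12%, 3.14% and 4.37%. With tau the APOE3S/S share was 2.44%, 2.71% and 3.27% at the lowest, median and highest, and with amyloid it was 2.37%, 2.91% and 3.58%. With the title sets pooled, tau and untreated libraries overlapped in both genotypes. Within sets they did not overlap for APOE3 in the SAN set (2.91% to 3.88% untreated, 2.42% to 2.79% with tau) or for APOE3S/S in the second set (3.12% and 4.37% untreated, 2.71% to 2.74% with tau). The library at 4.37% (95% Wilson interval 4.36% to 4.38%, which covers counting error only) was replicate 4 of untreated APOE3S/S, from the second set; it also had the highest microglial marker sum of all libraries, 13763 CPM and is left out in turn in several results below. The next was replicate 1 of untreated APOE3, of the SAN set, at 3.88%.

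The first question was what tau does to these genes in APOE3 microglia. Here 4 large subunit proteins fell, and no ribosomal protein gene rose. Rpl3, which lines the peptidyl transferase centre, had 573, 655 and 782 CPM (lowest, median and highest of 6) in untreated cells and 484, 511 and 523 CPM with tau. All 6 tau libraries of Rpl3 lay below all 6 untreated ones. Its log2 fold change was -0.34 ± 0.10 (SE) with an adjusted p of 0.0177 by edgeR's quasi-likelihood test. Rpl10a, the protein of the mobile stalk beside the tRNA exit site, had 348, 443 and 498 CPM untreated and 287, 312 and 351 CPM with tau. These groups overlapped at 1 untreated library of the SAN set. Rpl10a fell by 0.42 on the log2 scale (SE 0.11, adjusted p = 0.0111 by edgeR).

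Rpl4, whose long loop lies in the exit tunnel, had 811, 914 and 1003 CPM untreated and 666, 732 and 759 CPM with tau. Its groups did not overlap, and its log2 fold change was -0.28 ± 0.09 (adjusted p = 0.0295 by edgeR). Rpl12, at the base of the stalk, had 318, 406 and 475 CPM untreated and 249, 318 and 339 CPM with tau. Its groups overlapped, and its log2 fold change was -0.35 ± 0.11 (adjusted p = 0.0376 by edgeR). In the annotated transcripts used, Rpl4 and Rpl12 hold none of the shared 3′ stretches described above, whereas Rpl3 and Rpl10a do. This does not show that reads of Rpl4 and Rpl12 fit no other gene.

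**Figure D4:**
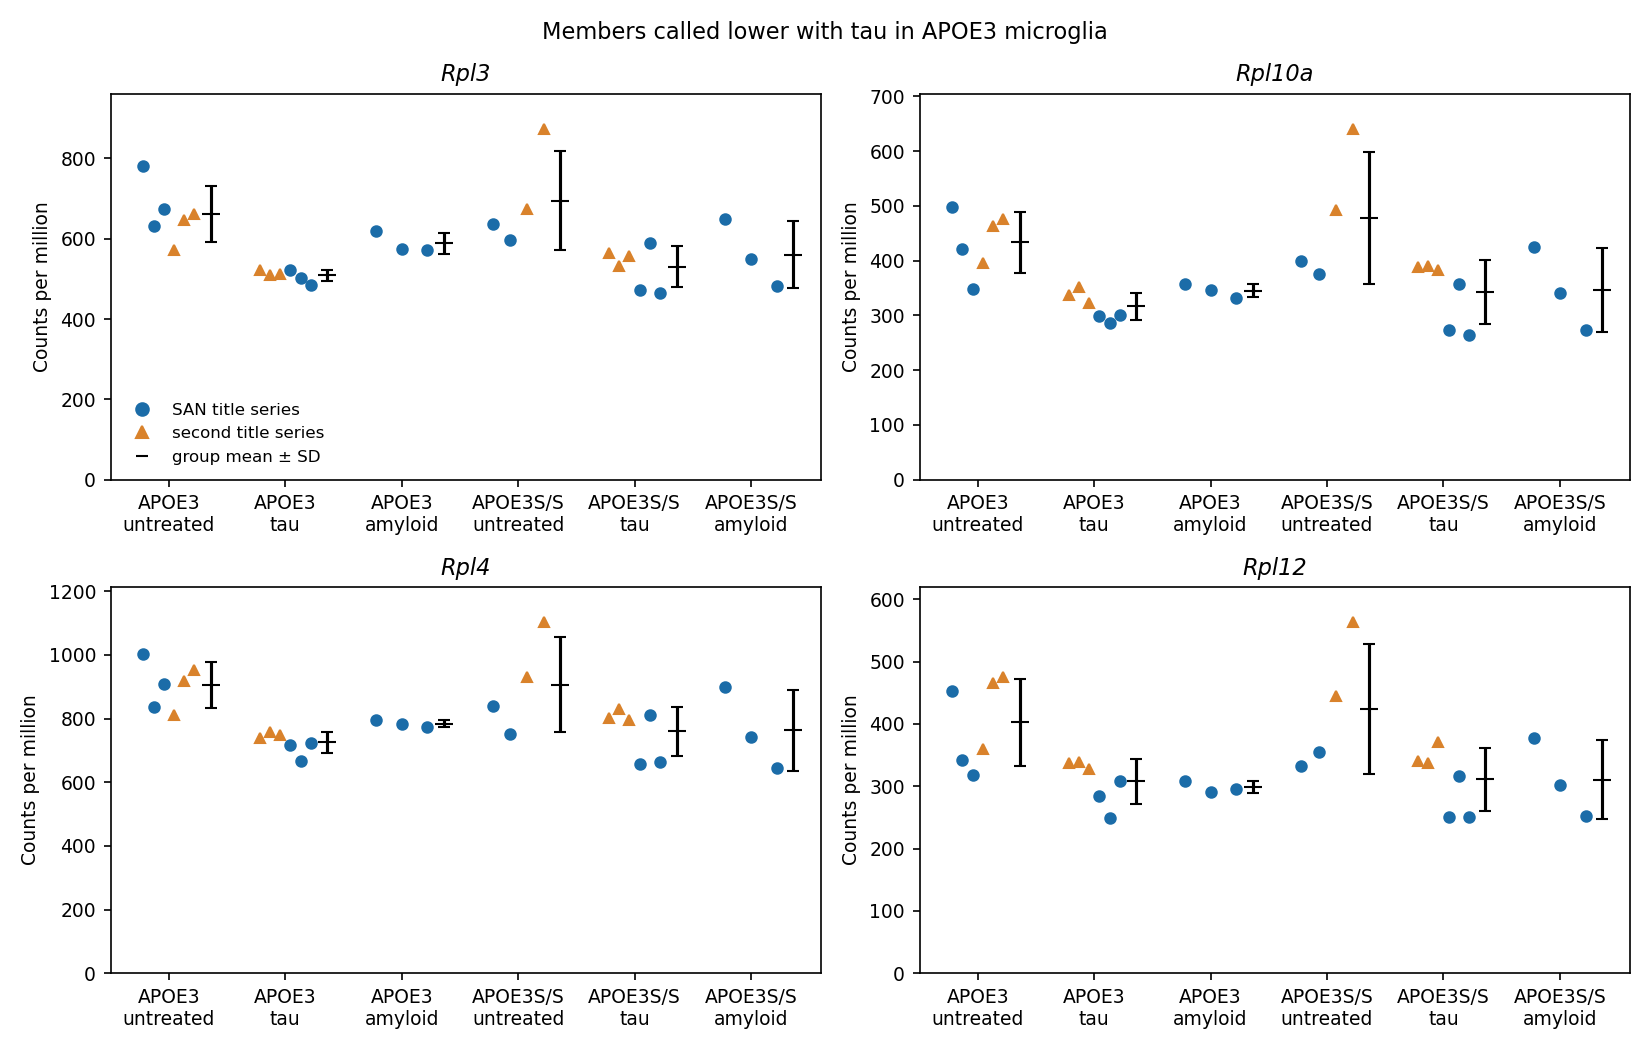
Level (CPM) of Rpl3, Rpl10a, Rpl4 and Rpl12 in each library, by group; circles are the SAN title set, triangles the second set, and black marks show the group mean ± SD. In APOE3 cells all tau libraries of Rpl3 (484 to 523 CPM) and Rpl4 (666 to 759 CPM) lie below all untreated ones.

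These 4 of 88 tested genes are 4.55%, while 14.8% of all 13905 genes passed in either direction and 5.87% passed as lower, so the share called is not above the background. The count was 1 without replicate 1 of the untreated group, 2 without its replicate 6 or without replicate 1, 2, 3 or 5 of the tau group, and 10 without untreated replicate 4. With no term for the title set it was 0. The shift of the whole family was small: the median log2 fold change over the 88 genes was -0.20, against -0.02 over all genes, and 82 of 88 values were below 0. Without replicate 1 of untreated APOE3 the median was -0.11. These genes moved together across the libraries, so their signs are not independent. With all libraries, 22 genes had an unadjusted p under 0.05 by edgeR, and DESeq2 called 6. The shares of all genes by these measures are not given here. Libraries did not overlap, with tau lower, for 7 genes, among them Rpl3, Rpl4, Rpl6, Rpl8, Rpl13 and Rps16, against 1.76% of all genes.

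By role, 4 of 43 large subunit genes and 0 of 31 small subunit genes were called in APOE3 cells, with medians of -0.20 and -0.23; 8 of the 31 had an unadjusted p under 0.05, and DESeq2 called 1. The stalk genes Rplp0, Rplp1 and Rplp2 had log2 fold changes from -0.18 to -0.13 and did not pass. Rplp0 had 1036, 1236 and 1499 CPM untreated and 1054, 1073 and 1148 CPM with tau, and these groups overlapped. Rps6, the substrate of the S6 kinases, had 460, 547 and 620 CPM untreated and 405, 451 and 465 CPM with tau, overlapping at the edge. Rpsa had 795, 966 and 1114 CPM untreated and 744, 807 and 858 CPM with tau. The other extremes of the family were genes that share sequence or have few counts. Rps27 (-0.46 ± 0.32) and Rpl24 (-0.38 ± 0.30) were the lowest beside Rpl10a and Rpl12, and Rps27rt (0.43 ± 0.46), Rpl39l (0.37 ± 0.23), Rps4l (0.21 ± 0.13) and Rpl17 (0.16 ± 0.32) were the highest; edgeR's adjusted p was 0.294 or more for each.

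In APOE3S/S microglia tau lowered Rpl10a and Rpl3, and no gene of the family rose. The untreated libraries of Rpl3 had 596, 636, 674 and 874 CPM, and the tau libraries had 465, 545 and 590 CPM at the lowest, median and highest. The groups did not overlap, and Rpl3 fell by 0.39 on the log2 scale (SE 0.11, adjusted p = 0.0485 by edgeR). Rpl10a had 376, 400, 493 and 641 CPM untreated and 264, 370 and 389 CPM with tau. Its groups overlapped, and it fell by 0.47 (SE 0.12, adjusted p = 0.0372 by edgeR). The 2 of 88 genes called are 2.27%, against 3.28% of all genes in either direction and 1.14% lower. Groups did not overlap for Rpl3, Rpl5 and Rpl10, with tau lower, against 1.15% of all genes.

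The median log2 fold change of the family in APOE3S/S cells was -0.32, against -0.01 over all genes, and 85 of 88 values were below 0. By edgeR 57 genes had an unadjusted p under 0.05, and DESeq2 called 5. The shares of all genes by these measures are not given here, so these counts have no background. Rpl4 had 753, 840, 932 and 1103 CPM untreated and 659, 798 and 831 CPM with tau, and Rpl12 had 332, 355, 445 and 563 CPM untreated and 250, 326 and 372 CPM with tau. Neither passed, and both overlapped. The lowest values beside Rpl10a were Rps27 (-0.60 ± 0.35), Rpl24 (-0.53 ± 0.33) and Rpl32 (-0.44 ± 0.14), and the highest were Rps27rt (0.35 ± 0.52), Rpl21 (0.29 ± 0.35), Rpl39l (0.25 ± 0.26) and Rps4l (-0.04 ± 0.14), with edgeR's adjusted p at 0.0851 or more for each. Single libraries moved this result: without replicate 4 of the untreated group the median was -0.14 and 0 genes were called, and without that library and replicate 1 of untreated APOE3 together the median was -0.15, again with 0 called. With no term for the title set 0 genes were called, and leaving out replicate 1 or 3 of the untreated group or replicate 1, 2, 4 or 6 of the tau group also gave 0, replicate 3 of the tau group gave 1, and replicate 5 of the tau group gave 7.

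Since tau was given in both title sets, its effect was also fitted within each. In APOE3 cells of the SAN set 5 genes fell, Rpl3, Rpl10a, Rpl10, Rpl4 and Rpl6l, against 22.6% of all genes called. With the SAN libraries fitted alone 0 were called. In the joint fit 0 were called without tau replicate 5, 1 without untreated replicate 1 (median -0.049) or tau replicate 4 or 6, and 8 without untreated replicate 3. Rpl10, which completes the large subunit late in its assembly, had 815, 820 and 1030 CPM in untreated and 595, 652 and 677 CPM in tau libraries of this set; its log2 fold change was -0.40 ± 0.13 (adjusted p = 0.0309 by edgeR). Rpl6l, a processed pseudogene of Rpl6 by its annotation, had 37.2, 40.1 and 49.9 CPM untreated and 29.3, 30.5 and 31.2 CPM with tau, and fell by 0.42 (SE 0.15, adjusted p = 0.0443 by edgeR). All 50-base stretches at the 3′ ends of Rpl10 and Rpl6l (100% each) recur in other genes, for Rpl6l in Rpl6. The lowest other genes were Rps28 (-0.52) and Rps12 (-0.43), the highest Rpl39l (0.52), Rps4l (0.33), Rps27a (0.14) and Rpl17 (0.11). In the second set 0 of 88 were called by edgeR and by DESeq2, 6 had an unadjusted p under 0.05, and 0.611% of all genes were called; Rps27a (-0.95), Rps27 (-0.66), Rps3a3 (-0.59) and Rpl22l1 (-0.46) were lowest and Rps27rt (1.16), Rpl17 (0.22), Rps29 (0.21) and Rpl39l (0.19) highest. The family medians were -0.23 and -0.16 in the SAN and second sets.

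In APOE3S/S cells the medians of the sets stood further apart, at -0.09 in the SAN set and -0.51 in the second. In the SAN set 0 genes were called by edgeR and by DESeq2 and 2 had an unadjusted p under 0.05, against 7.66% of all genes called. Rpl24 (-1.10), Rps27 (-0.48), Rps14 (-0.32) and Rpl10a (-0.32) were lowest there and Rpl21 (0.91), Rpl39l (0.86), Rps27rt (0.41) and Rps4l (0.29) highest. In the second set 86 of 88 values were below 0. There edgeR called 0 genes of the family, with a smallest adjusted p of 0.0876 for Rpl3, and 0.122% of all genes. Unadjusted p by edgeR was under 0.05 for 73 genes, and DESeq2 called 17. The shares of all genes by these last 2 measures are not given here. Rpl17 (-0.91), Rpl38 (-0.75), Rpl36 (-0.72) and Rps27 (-0.70) were lowest and Rps27rt (0.29), Rpl24 (0.02), Rps10 (-0.11) and Rpl39l (-0.18) highest. The untreated arm of that set is 2 libraries, 1 of them the library with the highest share. Without that library the median was -0.21, and without the other, replicate 3, it was -0.76. Each of these fits rests on 1 untreated library, which is assumed to vary like the other groups. The family medians of the APOE3 sets without single libraries ran from -0.34 to -0.049 (SAN) and from -0.28 to -0.052 (second).

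The difference of the tau effect between the title sets was tested directly. In APOE3 cells edgeR and DESeq2 called 0 genes, 0 had an unadjusted p under 0.05, 5.62% of all genes were called, and the median difference was 0.09 (-0.10 without replicate 1 of untreated APOE3); Rps27rt (1.48), Rps28 (0.65), Rps12 (0.43) and Rps29 (0.41) were highest and Rps27a (-1.09), Rps3a3 (-0.54), Rpl22l1 (-0.40) and Rps27 (-0.39) lowest. In APOE3S/S cells both tools again called 0, 8 had an unadjusted p under 0.05, 0.949% of all genes were called, and the median difference was -0.41. Rpl21 (-1.16), Rpl17 (-1.14), Rpl39l (-1.04) and Rpl38 (-0.90) were lowest and Rpl24 (1.12), Rps10 (-0.07), Rps27rt (-0.12) and Rps14 (-0.13) highest. Without replicate 4 of untreated APOE3S/S this median was -0.09, and without replicate 3 it was -0.67.

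**Figure D5:**
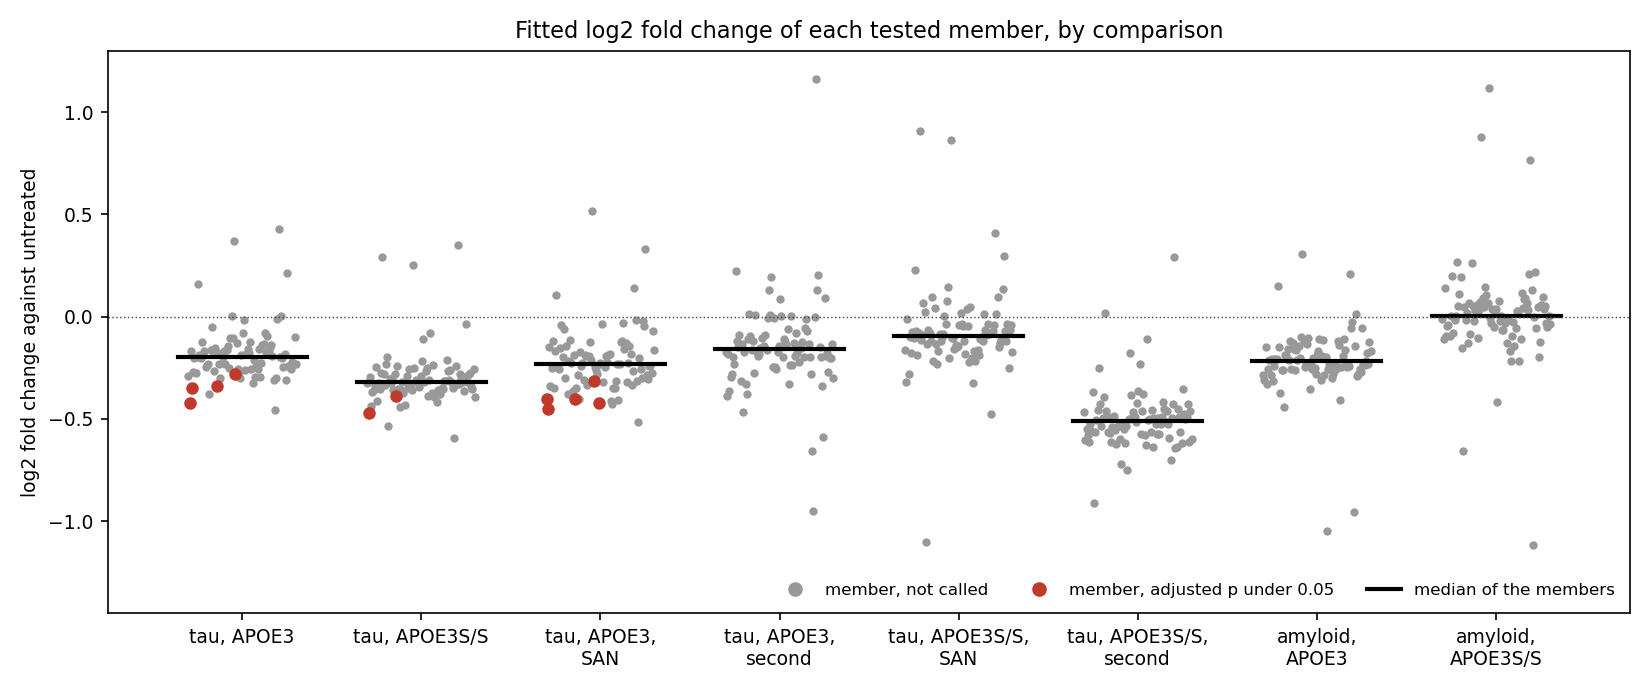
Fitted log2 fold change of each tested ribosomal protein gene against untreated cells, for tau in each genotype, for tau within each title set, and for amyloid; grey points are genes that did not pass, red points genes with an adjusted p under 0.05 by edgeR, and black bars the median. The medians run from -0.51 (tau, APOE3S/S, second set) to 0.00 (amyloid, APOE3S/S).

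The next question was whether the genotype itself changes these genes. In untreated cells 0 of 88 genes were called by edgeR and by DESeq2, 3 had an unadjusted p under 0.05, and 0.00719% of all genes were called. The median log2 difference of APOE3S/S minus APOE3 was 0.19, and 84 of 88 values were above 0, but without replicate 4 of untreated APOE3S/S the median was -0.01. The highest values were those of Rpl7a (0.39), Rpl38 (0.38), Rps27 (0.34) and Rps19bp1 (0.33), and the lowest those of Rps27rt (-0.38), Rps10 (-0.34), Rpl39l (-0.07) and Rpl21 (-0.01). With tau, 0 genes were called by both tools, 0 had an unadjusted p under 0.05, 0.0144% of all genes were called, and the median was 0.06. Rpl21 (0.46), Rpl7a (0.25), Rps27 (0.20) and Rpl23a (0.17) were highest and Rps27rt (-0.45), Rpl17 (-0.39), Rpl39l (-0.19) and Rps10 (-0.16) lowest.

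The difference of the tau effect between the genotypes was tested directly: edgeR and DESeq2 called 0 of 88 genes, 0 had an unadjusted p under 0.05, and edgeR called 0% of all genes. The median difference, APOE3S/S minus APOE3, was -0.12, with 82 of 88 values below 0, but without replicate 4 of untreated APOE3S/S the median was 0.063, and without replicate 1 of untreated APOE3 it was -0.21; these values rest on the same untreated libraries as the tau and the genotype values. Rpl17 (-0.58), Rpl38 (-0.33), Rps29 (-0.28) and Rpl27 (-0.28) were lowest, and Rpl21 (0.48), Rps10 (0.18), Rpl23a (0.04) and Rpl4 (0.03) highest. For Rpl3 and Rpl10a, the genes called in both genotypes, the tau effects were -0.34 and -0.39, and -0.42 and -0.47.

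Amyloid was compared with the untreated libraries of the SAN set, where all amyloid libraries belong. In APOE3 cells 0 of 89 ribosomal protein genes were called by edgeR and by DESeq2, 2 had an unadjusted p under 0.05, and edgeR called 0% of all genes. The median was -0.22, against 0.00 over all genes, and 85 of 89 values were below 0, but without replicate 1 of untreated APOE3 the median was -0.036. The astrocyte marker sum moved with this comparison: it was 30.4 to 61.0 CPM in the 6 untreated (3 of each title set) and 71.4 to 109.5 CPM in the 3 amyloid libraries of APOE3, which did not overlap, and its part in the result was not tested. Rpl3 had 632, 673 and 782 CPM untreated and 572, 574 and 618 CPM with amyloid, which did not overlap. Rpl10a had 348, 422 and 498 CPM untreated and 333, 346 and 357 CPM with amyloid, which did overlap. Groups this small can separate by chance, and the share of all genes that did so was not counted. The extremes were Rps10 (-1.05), Rps27rt (-0.95), Rpl24 (-0.44) and Rps19bp1 (-0.41) at the low end and Rpl36al (0.31), Rps27 (0.21), Rpl21 (0.15) and Rps29 (0.01) at the high end.

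In APOE3S/S cells, too, 0 genes were called with amyloid by either tool, with 1 at an unadjusted p under 0.05 and 0% of all genes called; the median was 0.00, with 47 values above and 42 below 0. Rpl39l (1.12), Rpl36al (0.88), Rps27a (0.77) and Rpl21 (0.27) were highest and Rps27rt (-1.12), Rpl24 (-0.66), Rpl7a (-0.42) and Rps19bp1 (-0.22) lowest. Rpl39l had 2.14 and 2.15 CPM in the 2 untreated and 4.02, 4.49 and 5.03 CPM in the 3 amyloid libraries, which did not overlap. Its adjusted p by edgeR was 0.582, and the share of all genes separated in this way was not counted. Between the genotypes with amyloid 0 genes were called by either tool, 2 had an unadjusted p under 0.05, 0% of all genes were called and the median was 0.16; Rpl39l (0.78), Rps10 (0.50), Rps19bp1 (0.49) and Rps27a (0.44) were highest and Rps27rt (-0.86), Rpl36al (-0.72), Rpl7a (-0.23) and Rpl21 (-0.20) lowest. The amyloid effect differed between the genotypes for 0 genes by either tool, with 2 at an unadjusted p under 0.05 and 0% of all genes called. Its median difference was 0.20, or 0.016 without replicate 1 of untreated APOE3; Rpl39l (1.47), Rps10 (1.04), Rps27a (0.82) and Rpl36al (0.57) were highest and Rpl7a (-0.25), Rpl24 (-0.22), Rps27rt (-0.17) and Rps27 (0.00) lowest.

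Tau against amyloid within the SAN set came next. In APOE3 cells edgeR called 0 of 89 genes, 3 had an unadjusted p under 0.05, DESeq2 called 1, and 7.33% of all genes were called; the median was -0.02. Rpl39l (0.88), Rps10 (0.87), Rps27rt (0.65) and Rpl17 (0.43) were highest and Rps27 (-0.46), Rpl36al (-0.41), Rps28 (-0.36) and Rpl30 (-0.21) lowest. In APOE3S/S cells both tools called 0, 1 had an unadjusted p under 0.05, 0.149% of all genes were called and the median was -0.11; Rps27rt (1.52), Rpl21 (0.63), Rpl7a (0.37) and Rps3a3 (0.25) were highest and Rps27a (-0.84), Rps27 (-0.69), Rpl24 (-0.45) and Rpl36al (-0.32) lowest.

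The title sets themselves were compared in untreated and tau libraries: 14 of 88 ribosomal protein genes were called between the second and the SAN set, 11 higher and 3 lower in the second, beside 38.6% of all genes. What the title mark stands for is not given in the sources used here. Rps4l had 36.3, 40.0 and 42.5 CPM in the second-set and 47.1, 49.0 and 66.6 CPM in the SAN untreated APOE3 libraries, and the tau libraries of both genotypes were separated in the same way. In untreated APOE3S/S the sets overlapped, at 44.6 and 59.7 CPM in the second and 53.7 and 65.8 CPM in the SAN set. Its log2 difference was -0.50 ± 0.09 (adjusted p = 0.000189 by edgeR). Rpl6l was 0.38 ± 0.08 higher, Rpl12 0.37 ± 0.08, Rpl10a 0.31 ± 0.08 and Rpl21 0.79 ± 0.23, all with an adjusted p of 0.00943 or less by edgeR. Rps10, Rps19bp1, Rpl14, Rpl32, Rps6 and Rpl4 were also higher, by 0.17 (Rpl4) to 0.39 (Rps10). Rps9 (-0.29) and Rpl24 (-0.59) were lower, and Rps27a (0.48), Rps27rt (-0.42) and Rpl39l (-0.37), also among the extremes, did not pass. Rpl10a, Rpl4 and Rpl12 were thus called between the sets as well as with tau. Leaving out replicate 2 or 3 of untreated APOE3, replicate 2 of untreated APOE3S/S, replicate 5 of APOE3 tau or replicate 4 or 6 of APOE3S/S tau gave 7 to 9 called genes. The family median between the sets was 0.052, and -0.017 without replicate 4 of untreated APOE3S/S, with 13 called.

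Among untreated APOE3 libraries alone, 0 of 88 genes differed between the sets by edgeR or DESeq2, with 3 at an unadjusted p under 0.05 and 16.4% of all genes called. The median was -0.09, and without replicate 1 it was 0.13 with 2 genes called. Rpl21 (0.93), Rps27a (0.45), Rps19bp1 (0.40) and Rps3a2 (0.37) were highest and Rps27rt (-1.13), Rpl24 (-0.72), Rpl39l (-0.48) and Rps4l (-0.38) lowest.

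Other genes of the pathway were read from lists of other TOP mRNA genes (translation factors and some with other roles), ribosome biogenesis genes, mTORC1 and translation control genes, and mitochondrial ribosomal proteins. With tau in APOE3 cells 6 of 26 TOP mRNA genes (23.1%) fell and 0 rose. Of all genes 14.8% were called in either direction and 5.87% as lower, and the difference was not tested. The median of the TOP mRNA list was -0.19, close to that of the ribosomal proteins. In this list Nap1l1, a histone chaperone with a TOP mRNA, fell by 0.39 (SE 0.07, adjusted p = 0.000626 by edgeR). Eef1a1, which brings aminoacyl-tRNA to the ribosome, fell by 0.26 (SE 0.08, adjusted p = 0.0261 by edgeR). Eef1b2, its exchange factor, fell by 0.38 (SE 0.12, adjusted p = 0.0295 by edgeR). Of 48 biogenesis genes 4 fell and 1 rose (10.4% in all, beside 14.8%), with a median of -0.10. Myc fell by 0.86 (SE 0.18, adjusted p = 0.00252), Gnl3, a nucleolar GTPase, by 0.44 (SE 0.10, adjusted p = 0.00338), and Nop58, of the box C/D particles that methylate rRNA, by 0.33 (SE 0.09, adjusted p = 0.0131), by edgeR.

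Of 31 mTORC1 and translation control genes 3 rose and 2 fell with tau in APOE3 cells (16.1%, near the 14.8% of all genes), with a median of 0.03. Eif2ak2 (PKR), an interferon-induced kinase that halts initiation, rose by 0.96 (SE 0.18, adjusted p = 0.000953 by edgeR). Sesn2, a leucine sensor that restrains mTORC1, rose by 0.43 (SE 0.09, adjusted p = 0.00260 by edgeR), and its relative Sesn1 fell by 0.56 (SE 0.13, adjusted p = 0.00569 by edgeR). Of 79 mitochondrial ribosomal protein genes 2 rose, Mrpl52 (0.79 ± 0.20) and Mrpl45 (0.39 ± 0.12), and 0 fell (2.53%), with a median of -0.0046. In APOE3S/S cells 0 genes of these 4 lists passed with edgeR, beside 3.28% of all genes; unadjusted p was under 0.05 for 11, 4, 10 and 3 genes in the order above, DESeq2 called 2, 3, 1 and 0, and the list medians were -0.21, -0.04, 0.07 and -0.13.

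Between the title sets 38.6% of all genes were called, beside 45.8% of the biogenesis list, 38.5% of the TOP mRNA list, 38.7% of the mTORC1 list and 22.8% of the mitochondrial list; differences between lists were not tested. Of 48 biogenesis genes 21 were higher and 1 lower in the second set; Myc was 2.14 ± 0.14 higher on the log2 scale, Heatr1 0.62 ± 0.07 and Gnl3 0.51 ± 0.07. Of 26 TOP mRNA genes 8 were higher and 2 lower; Vim (0.92), an intermediate filament protein, and Hnrnpa1 (0.43), a splicing factor, were higher, and neither is a translation factor. Of 31 mTORC1 and translation control genes 5 were higher and 7 lower, among them Ddit4 (-1.29) and Sesn2 (-0.40), which restrain mTORC1, and the kinase Rps6ka3 (0.55). Of 79 mitochondrial ribosomal protein genes 1 was higher and 17 lower, led by Mrps9 (-0.30), Mrpl14 (-0.50) and Mrps24 (-0.39). All genes named in this comparison had an adjusted p of 0.00197 or less by edgeR.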

How the data were processed

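The authors deposited 2 tables of raw counts per gene (60976 rows each, a tau table and an amyloid table, with 5 libraries in both at identical values). Per the labels' protocols, RNA was extracted with a Zymo kit and libraries were made with the QuantSeq 3′ FWD kit; per the submitters' processing notes the build was GRCm38 (mm10) and DESeq2 1.38.3 was used. The sources used here do not give the aligner or the counter. Rows with no number (6360), 25 rows without a name (0 counts) and 189 repeated symbols were left out. edgeR 4.0.16 (R 4.3.3) was run with TMM scaling, filterByExpr (minimum count 10), a quasi-likelihood F test and Benjamini-Hochberg adjustment over all genes tested; a call is an adjusted p under 0.05. Untreated and tau libraries (22) shared a fit with a term for the title set, amyloid was fitted in 11 libraries and tau against amyloid in 17, all of the SAN set. Within-set effects came from a fit with 1 term per group and set. Shares of all genes called are those of edgeR at an adjusted p under 0.05. The shares at an unadjusted p under 0.05 or by DESeq2 are not given. Counts of family or list genes by those measures therefore have no background here. Fits were tested on simulated data. All 57 pairs of libraries within a group differed by more than counting noise (chi-square per gene 4.22 or more). Alternatives were RLE scaling, library totals, TMM without these genes, no filter, DESeq2 1.42.0, no set term, each set alone, a replicate block and each library left out.

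The genes and lists were chosen with earlier results of these data known. In each comparison the text names up to 12 called genes and the 4 highest and 4 lowest log2 fold changes, and a fixed set of others (stalk proteins, Rpsa, Rps6, Rps27a and paralogue pairs); from other lists, up to 3 called genes. CPM values are counts scaled by the library total; correlations used log2 of CPM + 1. The tested genes exclude Rpl10l, Rpl32l, Rpl3l, Rps12l1 and, in the untreated and tau fit, Rpl36al. The alternatives without the 2 libraries of highest share, and with each library left out of the within-set fits, were chosen after seeing the data. Some items that meet this rule are not reported here.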

Additional observations from a re-analysis of the deposited data

Results flagged for a closer look

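In 92 tests of a group's highest or lowest library, 10 stood apart from the others by Dixon's criterion at the 95% level. Chance gives about 1 in 20 in independent tests. These tests used 23 values per group that moved together across libraries, so the count cannot be set against that share. Replicate 5 of APOE3S/S tau, of the SAN set, gave 5 of them: the ribosomal protein share was 3.27% with the next library at 2.74%, Rpl36a was 116 CPM (next 94.2), Rpl7 688 CPM (next 551), Rplp0 1416 CPM (next 1121) and Rplp2 431 CPM (next 292). Replicate 4 of untreated APOE3S/S, of the second set, gave 3: the share was 4.37% (next 3.14%), Rpl10 was 1018 CPM (next 801) and Rpl22 255 CPM (next 188). In APOE3 tau, Rps27a was 318 CPM in replicate 4 (next 145) and Rps27l 65.4 CPM in replicate 6 (next 54.4).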

How the results depend on the processing

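RLE scaling and TMM factors without the ribosomal protein genes kept every direction and call listed here. With library totals alone, tau in APOE3 called 15 genes and the set comparison in untreated APOE3 called 1. With no low-count filter the calls were 13 (tau, APOE3), 29 (tau, APOE3S/S), 2 (genotype with tau), 1 (tau by genotype), 1 (amyloid, APOE3), 3 (amyloid, APOE3S/S), 1 (genotype with amyloid), 5 and 4 (tau against amyloid in APOE3 and APOE3S/S), 3 and 6 (tau effect between sets in APOE3 and APOE3S/S) and 4 (sets, untreated APOE3); the cause was not tested. The shares of all genes called with library totals or with no filter are not given here, so those counts have no background. With no set term tau called 0 genes in both genotypes. DESeq2 called 5 for tau in APOE3S/S and 1 for tau against amyloid in APOE3. Fitted alone, the SAN set gave 0 calls for tau in APOE3 and 0 in APOE3S/S (median -0.087), and the second set gave 0 and 6 (median -0.52). Without the 2 libraries of highest share, tau in APOE3S/S called 0 and its median difference between sets was -0.11.

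Leaving out each library in turn gave 1 to 10 calls for tau in APOE3, 0 to 7 for tau in APOE3S/S and 7 to 16 between the sets. It gave 0 to 2 calls between sets in untreated APOE3 (median -0.20 to 0.13). For the tau effect between sets in APOE3S/S the median ran from -0.67 to -0.091. For tau within sets the calls ran from 0 to 8 in APOE3 (SAN) and from 0 to 67 in APOE3S/S (second, median -0.76 to -0.21), an alternative chosen after seeing the data, and from 0 to 1 in APOE3S/S (SAN). The genotype median in untreated cells ran from -0.00602 to 0.28. Where this left 1 library in an arm, that library was assumed to vary like the other groups.

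Genes that had not passed changed sign. With a set alone, Rps27rt with tau was -0.29 in APOE3 (SAN), and in APOE3S/S Rps4l was 0.30 (SAN), Rpl24 0.00972, Rpl39l -0.18 and Rpl21 -0.26 (second). With no set term Rps4l with tau was 0.017 in APOE3S/S and Rpl21 between untreated genotypes 0.051. With library totals alone Rps27 was -0.065 for amyloid by genotype and Rps10 0.051 for the tau effect between sets in APOE3S/S. Without the 2 libraries of highest share Rps4l with tau was 0.13 in APOE3S/S, and for the effect between sets Rps14 was 0.21 and Rps27rt 0.35. Ranges with each library left out were as follows. With tau, Rpl17 ran from -0.017 to 0.47 in APOE3 and Rps4l from -0.16 to 0.14 in APOE3S/S. Between genotypes, Rpl21 ran from -0.41 to 0.18 and Rpl39l from -0.38 to 0.12 untreated, Rps27 from -0.070 to 0.44 with tau, and Rpl21 from -0.60 to 0.21 and Rps27a from -0.43 to 0.95 with amyloid. For tau by genotype, Rpl4 ran from -0.029 to 0.15 and Rpl23a from -0.071 to 0.20. With amyloid in APOE3, Rps29 ran from -0.14 to 0.30, Rpl21 from -0.27 to 0.35 and Rpl36al from -0.066 to 0.69. With amyloid in APOE3S/S, Rps27rt ran from -1.81 to 0.26, Rpl24 from -1.19 to 0.15, Rpl21 from -0.12 to 0.46 and Rps27a from -0.11 to 1.08. For amyloid by genotype, Rps27 ran from -0.22 to 0.20, Rps27rt from -0.85 to 1.21, Rpl24 from -0.74 to 0.59 and Rps27a from -0.055 to 1.33. For tau against amyloid, Rps27rt ran from -0.29 to 1.00 in APOE3 and Rps27a from -1.16 to 0.038 in APOE3S/S. For the tau effect between sets, Rps27 ran from -0.94 to 0.10 in APOE3, and in APOE3S/S Rps14 from -0.42 to 0.23, Rps27rt from -1.48 to 0.58 and Rps10 from -0.52 to 0.25. Between sets in untreated APOE3, Rps27a ran from -0.042 to 0.76.

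Same-numbered libraries of the genotypes correlated by -0.178 to 0.294 in their deviations, not above 0.1 in every pair; whether they share a culture or batch is not stated, and they are treated as sharing only a number. With the replicate number as a block the genotype medians were 0.20 untreated, 0.06 with tau and 0.14 with amyloid, with 0 genes called in each.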
